A study of Bos taurus with 12 samples.

Results

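Integrin subunits were followed across 4 culture conditions of a bovine embryonic stem cell line. The 10 subunits are the alpha chains ITGA1, ITGA2, ITGA3, ITGA5, ITGA6 and ITGAV and the beta chains ITGB1, ITGB3, ITGB4 and ITGB5. They were chosen by name, as the entries of the deposited count table whose gene identifiers map to these bovine symbols, and they make up 10 of its 19285 entries. All 10 were found, and all 10 passed the filter on low counts. The line, F7, was labelled wild type in every library, and poly-A RNA was sequenced from 3 libraries in each of 4 groups named 1/7MC+Pyr+FGF, 1/7MC+Pyr, 1/7MC and MC. The treatment field named the first 3 conditions and gave NC for the MC libraries. The series title names feeder layers at low density, pyruvate and a recombinant human form of basic FGF, a fibroblast growth factor. The labels do not spell out MC or give a cell density, so the groups are called here by their label names. All libraries come from a single line, and nothing in the labels says whether the 3 libraries of a group came from separate cultures, so a p-value here speaks only of the spread among libraries.

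An integrin is a receptor of 1 alpha and 1 beta chain that spans the plasma membrane, binds extracellular matrix outside the cell and links to actin or to keratin filaments inside it. The chain pair sets the ligand: in human and mouse, ITGA3 and ITGA6 with ITGB1, and ITGA6 with ITGB4, bind laminins. ITGA5 with ITGB1, and ITGAV with ITGB1, ITGB3 or ITGB5, bind fibronectin, vitronectin and other proteins with the arginine-glycine-aspartate (RGD) sequence, and ITGA1 and ITGA2 with ITGB1 bind collagens. Pluripotent cells in culture are known to hold to laminin through ITGA6 with ITGB1, whereas ITGA1 is known from mesenchymal cells such as fibroblasts and smooth muscle. The subunits below are grouped by these ligand classes.

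The 12 libraries held 27373759 to 44440972 counts. The 7 markers of pluripotent cells summed to 3401 to 3851 CPM (counts scaled to a common, TMM-normalised library size) in 1/7MC+Pyr+FGF, 4063 to 4339 CPM in 1/7MC+Pyr, 2475 to 2806 CPM in 1/7MC and 4052 to 4201 CPM in MC, and none of the 7 was under 1 CPM in every library of a group. Markers of fibroblasts were also read in every library, and a bulk library cannot tell fewer cells of a type from less RNA per cell. The leukocyte markers PTPRC, CD3E and CD14 and the endothelial markers PECAM1 and CDH5 were each under 1 CPM in every library. So were the megakaryocyte markers GP1BA and PPBP and the trophectoderm markers CDX2 and ELF5. Over the 12 libraries the whole lists summed to 1.45 to 2.88 CPM for leukocytes, 15.1 to 59.5 CPM for endothelium, 5.57 to 10.8 CPM for megakaryocytes and 11.9 to 30.6 CPM for trophectoderm. Other genes of these lists were read higher and differed between groups. TEK reached 27.5 CPM and KDR 24.5 CPM in 1/7MC+Pyr+FGF, KRT7 reached 23.8 CPM in MC, and GATA3 averaged 9.86 CPM in 1/7MC and 0.638 CPM in MC (log2 fold change 3.93). Of the megakaryocyte list, GP9 averaged 2.45 CPM in 1/7MC and 0.418 CPM in MC (log2 fold change 2.44). ITGA2B had group means of 4.37 to 6.20 CPM. Of the leukocyte list, CSF1R reached 1.68 CPM and CD79A 1.63 CPM. Replicates 2 and 3 of MC appeared to follow gene models unlike those behind the other 10 libraries, judged from entries that share an identifier. Of 128 shared Ensembl identifiers, 0 had differing counts in these replicates and 80 to 86 in the other 10 libraries. Of 61 shared Entrez identifiers, 53 had differing counts in these replicates and 0 in the others. Results against MC were for this reason computed again from MC replicate 1 alone. For 8 of the 10 subunits the level in MC replicate 1 was 0.789 to 1.03 times the mean of MC replicates 2 and 3, but for ITGAV it was 1.79 times and for ITGA1 3.72 times that mean.

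Among the laminin-binding chains, ITGA6 was highest in MC and lowest in 1/7MC. ITGA6, the alpha chain of the laminin receptor of pluripotent cells, stood at 222, 301.5 and 237 CPM in 1/7MC+Pyr+FGF, 305, 259.5 and 299 CPM in 1/7MC+Pyr, 128, 154.5 and 122 CPM in 1/7MC and 348, 383.5 and 371 CPM in MC. Every MC library was above every other library, every 1/7MC library was below every other library, and the 2 groups with pyruvate overlapped each other in between. ITGA6 was 2.73-fold lower in 1/7MC than in MC (log2 fold change -1.45 ± 0.13 SE, adjusted p = 2.69e-06, edgeR quasi-likelihood test with Benjamini-Hochberg adjustment over 13920 genes). It was 2.14-fold higher in 1/7MC+Pyr than in 1/7MC (log2 fold change 1.10 ± 0.13, adjusted p = 0.000117), and 1/7MC+Pyr+FGF against 1/7MC+Pyr gave -0.18 ± 0.13 (adjusted p = 0.442). Against MC, ITGA6 was lower in 1/7MC+Pyr+FGF (-0.54 ± 0.13, adjusted p = 0.0071), a call that was lost with MC replicate 1 alone (-0.47, adjusted p = 0.131).

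ITGB4 pairs only with ITGA6 and connects that pair to keratin filaments in hemidesmosomes. Its levels were 8.85, 9.83 and 10.6 CPM in 1/7MC+Pyr+FGF, 20.6, 15.6 and 15.45 CPM in 1/7MC+Pyr, 11.6, 11.9 and 9.96 CPM in 1/7MC and 30.3, 35.8 and 31.0 CPM in MC. MC was above all other groups and 1/7MC+Pyr above the remaining ones, while 1/7MC+Pyr+FGF and 1/7MC overlapped. ITGB4 was 2.9-fold lower in 1/7MC than in MC (-1.54 ± 0.14, adjusted p = 2.87e-06), 1.54-fold higher in 1/7MC+Pyr than in 1/7MC (0.63 ± 0.14, adjusted p = 0.0077) and 1.77-fold lower in 1/7MC+Pyr+FGF than in 1/7MC+Pyr (-0.82 ± 0.14, adjusted p = 0.00891). With FGF, ITGB4 was thus at -0.20 ± 0.14 against 1/7MC (adjusted p = 0.326), whereas ITGA6 was 1.88-fold above 1/7MC (0.91 ± 0.13, adjusted p = 0.000268).

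ITGA3, an alpha chain that binds laminins with ITGB1, varied least among the laminin-binding chains. It stood at 34.95, 59.9 and 39.0 CPM in 1/7MC+Pyr+FGF, 59.8, 35.9 and 46.0 CPM in 1/7MC+Pyr, 34.3, 39.1 and 28.7 CPM in 1/7MC and 51.4, 50.0 and 50.2 CPM in MC. Both groups with pyruvate spread across the range of the other 2, and 1/7MC lay below MC. The difference of 1/7MC against MC passed the test (-0.57 ± 0.21, adjusted p = 0.0437), but not with MC replicate 1 alone (adjusted p = 0.177) nor in 5 of the 6 fits that each left out 1 library of these groups (adjusted p up to 0.136). ITGA3 in 1/7MC+Pyr against 1/7MC gave 0.47 ± 0.21 (adjusted p = 0.151).

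**Figure D1:**
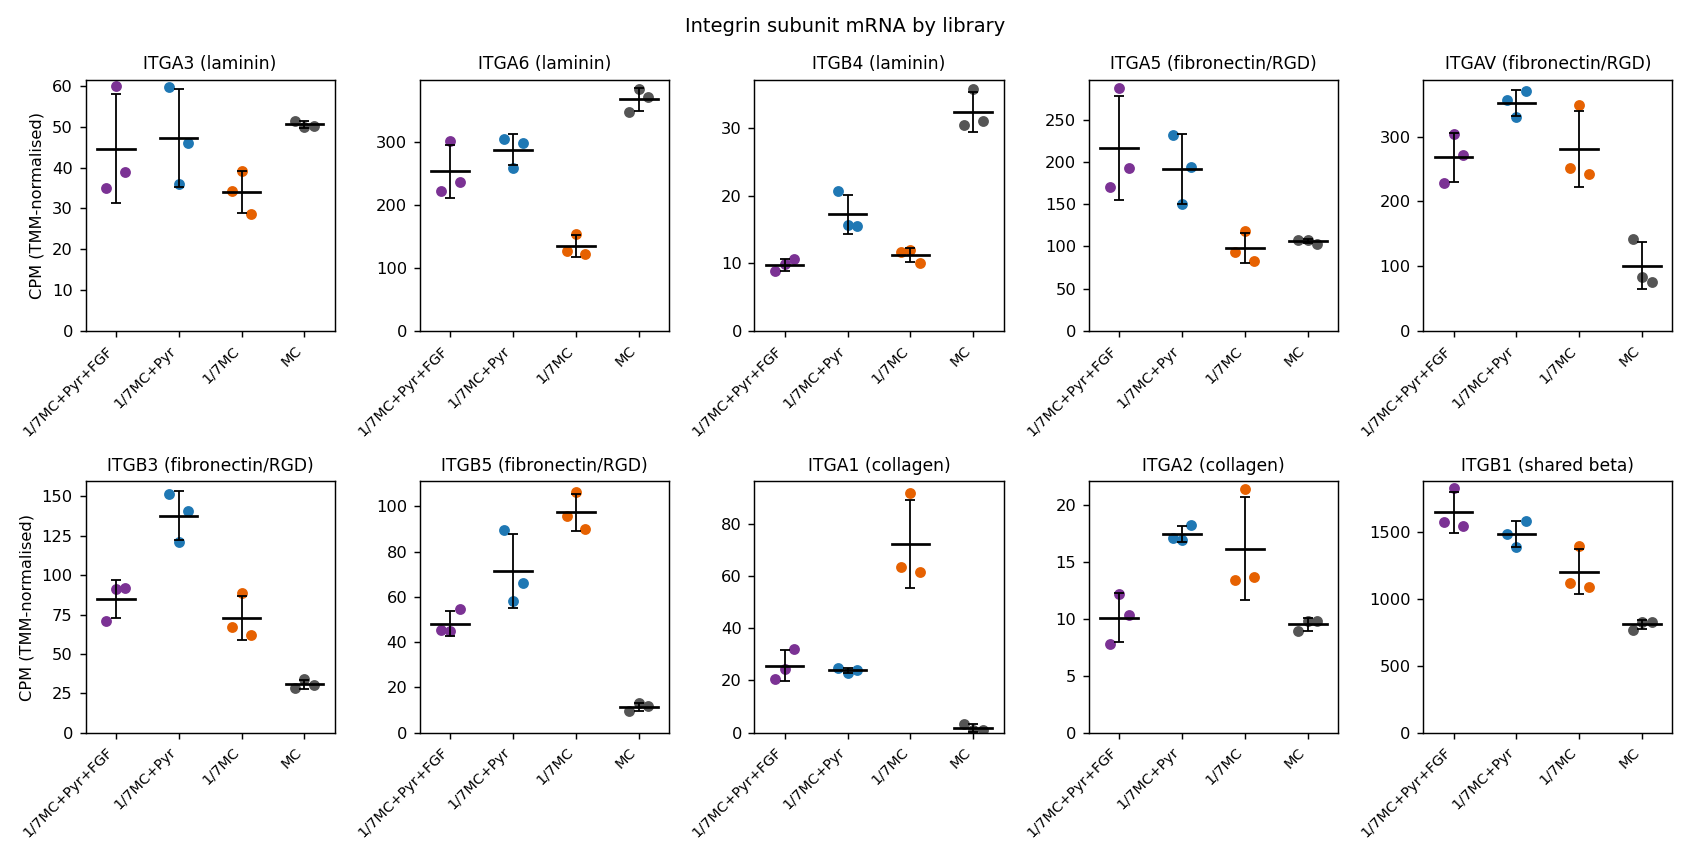
Level of each of the 10 integrin subunits in CPM (linear axes from 0, scaled by TMM-normalised library size), with 1 point per library and the mean ± SD of the 3 libraries of each group. ITGA6 and ITGB4 are highest in MC, whereas ITGAV, ITGB3, ITGB5, ITGA1 and ITGB1 have their lowest values there.

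The plot of levels by group shows a different order for the chains of the RGD-binding receptors, of which ITGAV, ITGB3 and ITGB5 were lowest in MC. ITGAV, which takes several beta chains, was read at 229, 305 and 272 CPM in 1/7MC+Pyr+FGF, 357, 330 and 370 CPM in 1/7MC+Pyr, 251, 349 and 243 CPM in 1/7MC and 143, 82.8 and 76.4 CPM in MC. All MC libraries lay below the other 9, the 2 groups with pyruvate did not overlap, and 1/7MC overlapped both of them. ITGAV was 2.79-fold higher in 1/7MC than in MC (1.48 ± 0.22, adjusted p = 0.000164) and passed again with MC replicate 1 alone, at the smaller value of 0.99 (adjusted p = 0.00588). The later steps did not pass: 1/7MC+Pyr against 1/7MC gave 0.33 ± 0.21 (adjusted p = 0.337) and 1/7MC+Pyr+FGF against 1/7MC+Pyr gave -0.39 ± 0.21 (adjusted p = 0.334).

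ITGB3, the beta chain of the classical vitronectin receptor, had 70.6, 91.3 and 92.0 CPM in 1/7MC+Pyr+FGF, 152, 121 and 140.5 CPM in 1/7MC+Pyr, 67.2, 88.5 and 62.3 CPM in 1/7MC and 28.2, 33.9 and 30.5 CPM in MC. The 1/7MC+Pyr libraries were above all others and the MC libraries below all others. ITGB3 was higher in 1/7MC than in MC (1.24 ± 0.15, adjusted p = 3.73e-05) and higher again in 1/7MC+Pyr than in 1/7MC (0.92 ± 0.15, adjusted p = 0.00117), so that 1/7MC+Pyr was 4.46-fold above MC. It was 1.63-fold lower in 1/7MC+Pyr+FGF than in 1/7MC+Pyr (-0.70 ± 0.15, adjusted p = 0.0282), and this call was lost in 4 of the 6 fits without 1 library of the pair, 1/7MC+Pyr+FGF replicate 1 (adjusted p = 0.121) or 2 (0.051) or 1/7MC+Pyr replicate 1 (0.127) or 3 (0.0984).

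ITGB5 is a beta chain that pairs only with ITGAV and binds vitronectin. It measured 45.2, 44.8 and 54.5 CPM in 1/7MC+Pyr+FGF, 89.6, 58.4 and 66.05 CPM in 1/7MC+Pyr, 95.9, 106 and 90.1 CPM in 1/7MC and 9.75, 13.1 and 11.6 CPM in MC. The 4 groups did not overlap, with 1/7MC highest and MC lowest. The difference of 1/7MC against MC was 8.49-fold (3.09 ± 0.17, adjusted p = 6.86e-08), and 1/7MC+Pyr+FGF was 2.02-fold below 1/7MC (-1.02 ± 0.16, adjusted p = 0.000598). Each single step between them missed the threshold, with -0.45 ± 0.16 in 1/7MC+Pyr against 1/7MC (adjusted p = 0.0676) and -0.57 ± 0.16 in 1/7MC+Pyr+FGF against 1/7MC+Pyr (adjusted p = 0.0791). Of these partners of ITGAV, ITGB5 had its highest mean in 1/7MC and ITGB3 in 1/7MC+Pyr. The ITGB5 difference between these groups did not pass.

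ITGA5, the alpha chain of the main fibronectin receptor, was higher in the 2 groups named for pyruvate than in 1/7MC and MC. Its levels were 170, 287 and 192 CPM in 1/7MC+Pyr+FGF, 231.5, 150 and 193.5 CPM in 1/7MC+Pyr, 93.6, 117.9 and 82.9 CPM in 1/7MC and 107, 107 and 103 CPM in MC. All 6 libraries of the groups named for pyruvate were above all 6 of 1/7MC and MC, and within each of these sets the groups overlapped. ITGA5 was 1.95-fold higher in 1/7MC+Pyr than in 1/7MC (0.96 ± 0.20, adjusted p = 0.00572) and 2.2-fold higher in 1/7MC+Pyr+FGF than in 1/7MC (1.14 ± 0.20, adjusted p = 0.00139). The value of 1/7MC against MC was -0.11 ± 0.20 (adjusted p = 0.684). Against MC, ITGA5 passed in 1/7MC+Pyr+FGF (1.03 ± 0.20, adjusted p = 0.00235) and in 1/7MC+Pyr (0.85 ± 0.20, adjusted p = 0.00747), but with MC replicate 1 alone neither did (adjusted p = 0.0527 and 0.108 in that order).

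Of the collagen-binding chains, ITGA1 had the widest range of the 10 subunits. ITGA1, a receptor chain for collagen IV and other collagens, had 20.5, 24.6 and 32.0 CPM in 1/7MC+Pyr+FGF, 24.9, 23.0 and 23.9 CPM in 1/7MC+Pyr, 63.5, 91.7 and 61.5 CPM in 1/7MC and 3.39, 0.894 and 0.928 CPM in MC. The MC libraries were far below the rest, the 1/7MC libraries above the rest, and the 2 groups with pyruvate overlapped. ITGA1 was 40.4-fold higher in 1/7MC than in MC (5.33 ± 0.41, adjusted p = 8.98e-07). The MC values rest on 121 counts in replicate 1 and on 28 and 25 counts in replicates 2 and 3, and against replicate 1 alone the difference was 21.5-fold (4.43, adjusted p = 2.14e-06). Without MC replicate 1 the ITGA1 log2 fold change was 6.31, and it was 3.48 on the authors' length-scaled signal, brought to equal library sums and tested as log2(value + 1), a scale that understates the change of low genes. ITGA1 was 3.02-fold lower in 1/7MC+Pyr than in 1/7MC (-1.59 ± 0.34, adjusted p = 0.0062), and 1/7MC+Pyr+FGF against 1/7MC+Pyr gave 0.10 ± 0.33 (adjusted p = 0.895). Even so, ITGA1 stayed 13.4-fold above MC in 1/7MC+Pyr (3.74 ± 0.40, adjusted p = 2.5e-05, or 2.83 against MC replicate 1 alone) and 14.4-fold above it in 1/7MC+Pyr+FGF (3.84 ± 0.40, adjusted p = 2.32e-05, or 2.90 against MC replicate 1 alone).

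ITGA2, a receptor chain that prefers fibrillar collagen, moved far less. It was read at 7.85, 12.2 and 10.3 CPM in 1/7MC+Pyr+FGF, 17.1, 17.0 and 18.3 CPM in 1/7MC+Pyr, 13.4, 21.4 and 13.7 CPM in 1/7MC and 8.91, 9.83 and 9.84 CPM in MC. The libraries of 1/7MC+Pyr and 1/7MC overlapped each other and were above all those of 1/7MC+Pyr+FGF and MC, which also overlapped each other. ITGA2 was 1.7-fold higher in 1/7MC than in MC (0.77 ± 0.19, adjusted p = 0.00605) and did not pass in 1/7MC+Pyr against 1/7MC (0.11 ± 0.19, adjusted p = 0.755), where ITGA1 fell. The difference of 1/7MC+Pyr against MC passed (0.87 ± 0.19, adjusted p = 0.00509) but was lost with MC replicate 1 alone (0.98, adjusted p = 0.0508). ITGA2 was 1.73-fold lower in 1/7MC+Pyr+FGF than in 1/7MC+Pyr (-0.79 ± 0.19, adjusted p = 0.0491). That call was lost in 5 of the 6 fits without 1 library of the pair, those without 1/7MC+Pyr+FGF replicate 1 (adjusted p = 0.187) or 3 (0.112) or without 1/7MC+Pyr replicate 1 (0.144), 2 (0.0736) or 3 (0.159). Against 1/7MC, ITGA2 was also lower in 1/7MC+Pyr+FGF (-0.68 ± 0.19, adjusted p = 0.0195), though not without 1/7MC+Pyr+FGF replicate 1 (-0.52, adjusted p = 0.0757) or 1/7MC replicate 2 (-0.42, adjusted p = 0.0935).

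ITGB1, the beta chain that all 6 alpha chains above can take as partner, was the most abundant subunit in every library. Its levels were 1571, 1822 and 1541 CPM in 1/7MC+Pyr+FGF, 1484, 1386 and 1576 CPM in 1/7MC+Pyr, 1119, 1392 and 1086 CPM in 1/7MC and 770, 829 and 825 CPM in MC. MC was below every other group and 1/7MC below 1/7MC+Pyr+FGF, while 1/7MC+Pyr overlapped both of its neighbours. ITGB1 was 1.48-fold higher in 1/7MC than in MC (0.57 ± 0.11, adjusted p = 0.00114) and 2.04-fold higher in 1/7MC+Pyr+FGF than in MC (1.03 ± 0.11, adjusted p = 3.38e-05). 1/7MC+Pyr against 1/7MC (0.31 ± 0.11, adjusted p = 0.0732) and 1/7MC+Pyr+FGF against 1/7MC+Pyr (0.15 ± 0.11, adjusted p = 0.465) did not pass by themselves, whereas 1/7MC+Pyr+FGF against 1/7MC did (0.46 ± 0.11, adjusted p = 0.00892, lost on the rescaled signal at 0.36 and adjusted p = 0.071).

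**Figure D2:**
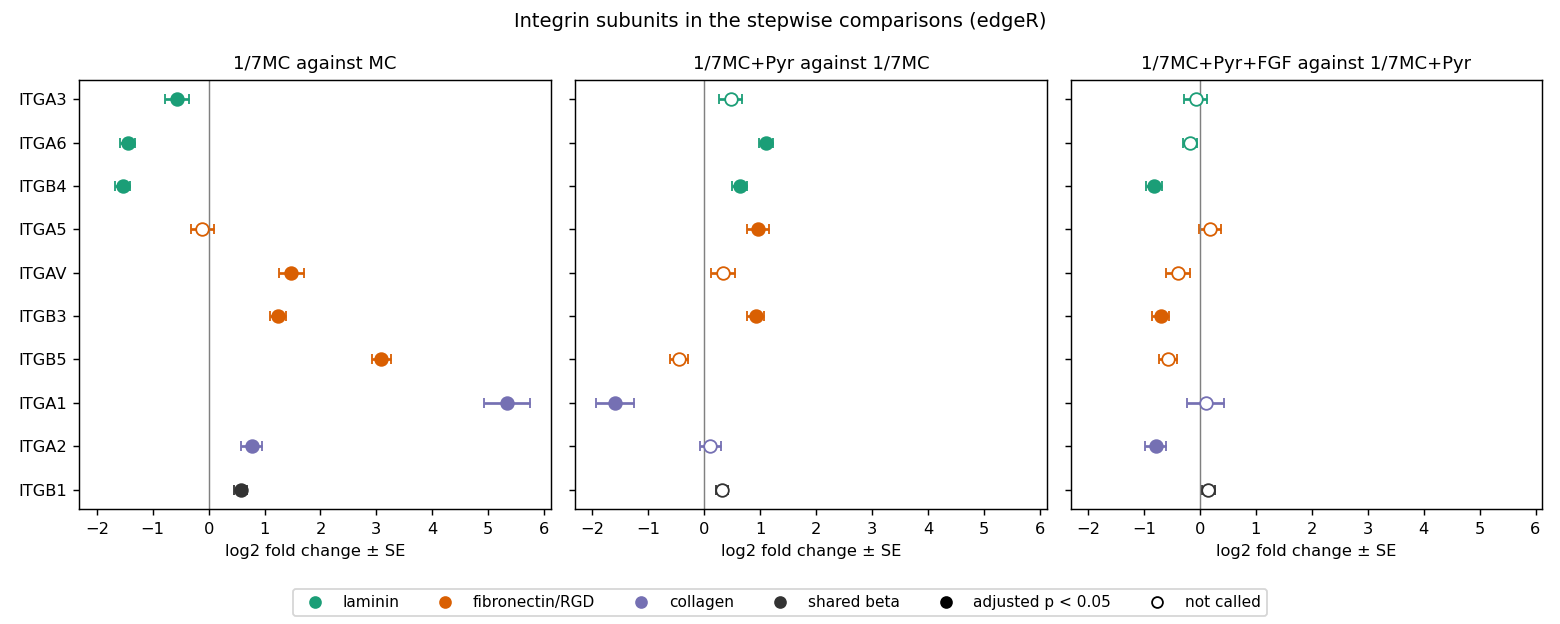
Log2 fold change ± SE of the 10 integrin subunits in 1/7MC against MC, 1/7MC+Pyr against 1/7MC and 1/7MC+Pyr+FGF against 1/7MC+Pyr (edgeR, all 12 libraries); filled points have an adjusted p under 0.05 and colours mark the ligand class. In 1/7MC against MC the 3 laminin-binding chains lie below 0 and both collagen-binding chains above it, with ITGA1 at 5.33.

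Set side by side by ligand class, 1/7MC against MC gave lower laminin-binding chains and higher collagen-binding and RGD-binding chains. All 3 laminin-binding chains fell, with a median log2 fold change of -1.45. Of the 4 RGD-binding chains ITGAV, ITGB3 and ITGB5 rose and ITGA5 did not pass, with a median of 1.36, and both collagen-binding chains rose, with a median of 3.05. Together with ITGB1, 6 subunits rose and 3 fell of 10, where 45% of all 13920 genes tested passed, 23.7% higher and 21.3% lower. The median over the 10 subunits was 0.67, against 0.00 over all genes tested. From MC replicate 1 alone, 6 rose and 2 fell (ITGA3 no longer passed), where 23.9% of all genes passed, 14% higher and 9.96% lower. Markers of fibroblasts moved in the direction of the collagen-binding and RGD-binding chains: 12 of 12 rose, and their summed level was 9337 to 15010 CPM in 1/7MC and 1898 to 1932 CPM in MC. Epithelial markers moved with the laminin-binding chains, as 7 of 7 fell, with sums of 780 to 933 CPM in 1/7MC and 1865 to 2363 CPM in MC. Smooth muscle markers went both ways, as 3 of 5 rose and MYH11 fell (-1.21 ± 0.22, adjusted p = 0.000831). They summed to 3204 to 3541 CPM in 1/7MC and 1543 to 1719 CPM in MC, mostly from ACTA2 and TAGLN. Of the pluripotent markers 5 of 7 fell. The part of any of these marker lists in the integrin differences was not tested.

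With pyruvate, in 1/7MC+Pyr against 1/7MC, 4 subunits rose (ITGA6, ITGB4, ITGA5 and ITGB3) and ITGA1 fell, where 18.1% of all genes tested passed, 8.08% higher and 10.1% lower. The median was 0.40 over the 10 subunits, against -0.01 over all genes. By class it was 0.63 for the laminin-binding, 0.62 for the RGD-binding and -0.74 for the collagen-binding chains. The 1/7MC libraries stand on both sides of these first comparisons, as the first group against MC and as the reference of 1/7MC+Pyr, so opposite signs of a subunit in them are not independent. Within 1/7MC, replicate 2 was above the mean of replicates 1 and 3 for all 10 subunits, by 1.10-fold (ITGB4) to 1.58-fold (ITGA2), while the median of all genes was 1.00-fold. Epithelial markers rose with the laminin-binding chains (5 of 7, with sums of 1407 to 1471 CPM in 1/7MC+Pyr and 780 to 933 CPM in 1/7MC), as did 6 of the 7 pluripotent markers. Fibroblast markers went both ways, 1 rising and 6 falling of 12, with a median of -0.32. Their sums overlapped, at 11730 to 20990 CPM in 1/7MC+Pyr and 9337 to 15010 CPM in 1/7MC, and came mostly from COL1A1, COL1A2 and COL3A1. The part of these marker lists in the result was not tested.

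Adding FGF gave the fewest calls of the 6 comparisons. Against 1/7MC+Pyr, in 1/7MC+Pyr+FGF ITGB4, ITGB3 and ITGA2 fell and no subunit rose by edgeR's quasi-likelihood test, where 2.76% of all genes tested passed, 0.639% higher and 2.12% lower. The median of the 10 subunits was -0.29, against 0.01 over all genes. Only the ITGB4 call held under all 14 alternative settings tried for this comparison (highest adjusted p = 0.0457), and the number called was 1 to 3 when single libraries were left out (1 without 1/7MC+Pyr+FGF replicate 1, 1/7MC+Pyr replicate 1 or 1/7MC+Pyr replicate 3). The 7 epithelial markers went both ways here (2 rose, 3 fell). KRT8 and KRT18 rose, whereas EPCAM (log2 fold change -1.07), ESRP1 (-0.99) and CDH1 (-0.95) fell. CDH1 was called in 2 of the 6 fits without 1 library of the pair. The sums, mostly from KRT8 and KRT18, were 1906 to 2268 CPM in 1/7MC+Pyr+FGF and 1407 to 1471 CPM in 1/7MC+Pyr. Of the 12 fibroblast markers 1 was higher and 2 were lower. The list summed to 7781 to 11950 CPM in 1/7MC+Pyr+FGF and 11730 to 20990 CPM in 1/7MC+Pyr, mostly from COL1A1, COL1A2 and COL3A1. The part of these marker lists in the ITGB4 difference was not tested.

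Against 1/7MC, 1/7MC+Pyr+FGF had ITGA6, ITGA5 and ITGB1 higher and ITGB5, ITGA1 and ITGA2 lower, where 27.6% of all genes tested passed (11.9% higher and 15.7% lower), and the median of the 10 subunits was 0.08 against 0.01 over all genes. Compared with MC, 7 subunits were higher and 1 lower in 1/7MC+Pyr, where 28.4% of all genes passed (15.2% higher and 13.2% lower), with medians of 0.87 over the subunits and -0.01 over all genes. In 1/7MC+Pyr+FGF against MC, 6 were higher and 2 lower, where 32.5% of all genes passed (17.1% higher and 15.4% lower), with medians of 1.03 and 0.04. With MC replicate 1 alone the numbers were 5 higher and 1 lower in either of these. Of all genes, 9.71% then passed for 1/7MC+Pyr (6.56% higher and 3.15% lower) and 12% for 1/7MC+Pyr+FGF (5.86% higher and 6.13% lower). ITGAV, ITGB3, ITGB5, ITGA1 and ITGB1 were higher than in MC in all 3 other groups and ITGB4 was lower in all 3, also against MC replicate 1 alone, and these 3 comparisons share their MC libraries. Of the 12 fibroblast markers 11 were also higher, and none lower, in each of 1/7MC+Pyr and 1/7MC+Pyr+FGF than in MC (9 in 1/7MC+Pyr and 8 in 1/7MC+Pyr+FGF with MC replicate 1 alone). Of the 7 epithelial markers 1 rose and 5 fell in 1/7MC+Pyr, and 1 rose and 4 fell in 1/7MC+Pyr+FGF, against MC (0 and 3, and 1 and 4, with MC replicate 1 alone). The part of these markers in the integrin differences was not tested.

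To compare levels between subunits, CPM were divided by gene length in kilobases. On this scale ITGB1 led every group, at 419.5 CPM per kilobase in 1/7MC+Pyr+FGF, 378 in 1/7MC+Pyr, 306 in 1/7MC and 206 in MC, and it made up 65.57% ± 3.83 (SD over 12 libraries) of the summed level of the 10 subunits. Next came ITGA5, ITGA6 and ITGAV in 1/7MC+Pyr+FGF, with 48.7, 45.5 and 37.2 CPM per kilobase and ranges that overlapped between neighbours. The order in 1/7MC+Pyr was ITGA6, ITGAV and ITGA5, with 51.6, 48.8 and 43.1 CPM per kilobase and again overlapping neighbours. In 1/7MC, ITGAV and ITGB5 came next, at 38.9 and 36.8 CPM per kilobase and overlapping, above ITGA6 (24.2) and ITGA5 (22.1), which also overlapped. In MC, ITGA6 stood apart at 66.0 CPM per kilobase, followed by ITGA5 at 23.8 and ITGAV at 13.9. The lowest subunit per length was ITGB4 in 1/7MC+Pyr+FGF (1.73) and 1/7MC (1.98), but ITGA1 in 1/7MC+Pyr (2.19) and MC (0.159 CPM per kilobase).

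The make-up of the alpha chains followed these levels. Of the summed per-length level of the 6 alpha chains, the laminin-binding ITGA3 and ITGA6 made up 37.6% ± 1.09 in 1/7MC+Pyr+FGF, 38.3% ± 0.178 in 1/7MC+Pyr, 30.3% ± 1.53 in 1/7MC and 65.4% ± 3.79 in MC (mean ± SD, n = 3 libraries each). ITGA5 and ITGAV made up 58.8% ± 0.952, 57.3% ± 0.601, 59.0% ± 0.823 and 32.3% ± 3.85 in the same order of groups. The collagen-binding ITGA1 and ITGA2 made up 3.58% ± 0.573, 4.43% ± 0.433, 10.7% ± 0.745 and 2.40% ± 0.0782. These shares are a description with no test. The laminin-binding share was 61.0% in MC replicate 1, the MC library that appears to share its gene models with the other groups. No library of the other groups exceeded 38.8%.

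**Figure D3:**
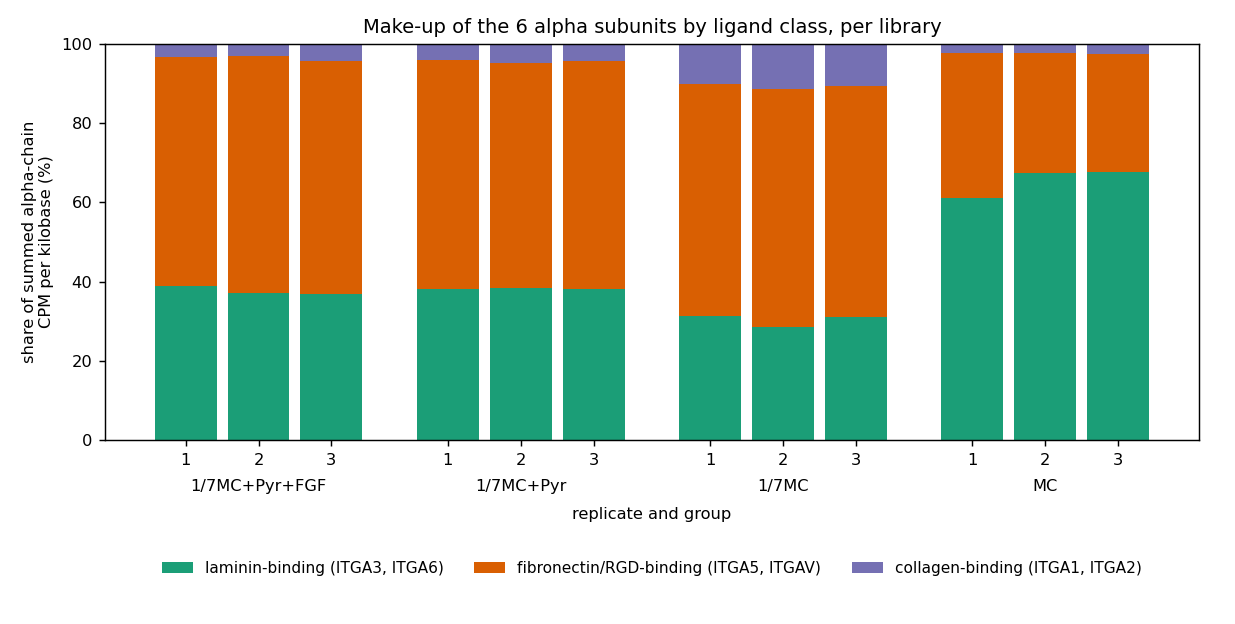
Share of the summed alpha-chain level (CPM per kilobase, in percent, stacked to 100) taken by the laminin-binding (ITGA3, ITGA6), RGD-binding (ITGA5, ITGAV) and collagen-binding (ITGA1, ITGA2) chains, with 1 bar per library. The laminin-binding share is the largest in the 3 MC libraries and the RGD-binding share in the other 9.

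The bars of alpha-chain shares hide changes within a class, which ratios of single chains show. Within the RGD-binding class, ITGA5 and ITGAV made up 33.1% and 25.8% of the alpha chains in 1/7MC+Pyr+FGF, 26.7% and 30.6% in 1/7MC+Pyr, 21.4% and 37.6% in 1/7MC and 20.4% and 11.9% in MC. The per-length ratio of ITGA1 to ITGA2 was 0.850 ± 0.179 in 1/7MC+Pyr+FGF, 0.453 ± 0.0253 in 1/7MC+Pyr, 1.49 ± 0.0739 in 1/7MC and 0.0622 ± 0.0548 in MC. In MC this ratio was 0.126 in replicate 1 and 0.0300 and 0.0311 in replicates 2 and 3, so its mean rests on replicate 1. ITGA1 was above ITGA2 per length in every 1/7MC library, while in 1/7MC+Pyr+FGF the ratio ran from 0.665 to 1.02. The order rests on the deposited lengths: by CPM, ITGA1 also had the higher mean in 1/7MC+Pyr+FGF and 1/7MC+Pyr. ITGB3 and ITGB5 can both pair with ITGAV, as ITGB1 can, so they are not its only partners. The ratio of ITGB3 to ITGB5 was 0.706 ± 0.0989 in 1/7MC+Pyr+FGF, 0.786 ± 0.0946 in 1/7MC+Pyr, 0.297 ± 0.0319 in 1/7MC and 1.08 ± 0.0665 in MC. ITGB4 was low beside ITGA6, its only partner, with ratios of 0.0385 ± 0.00596, 0.0590 ± 0.00784, 0.0821 ± 0.00694 and 0.0867 ± 0.00486 in 1/7MC+Pyr+FGF, 1/7MC+Pyr, 1/7MC and MC. The ratio of 1/7MC+Pyr+FGF was the lowest of these.

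The subunits were next set against all tested genes for likeness of pattern. Likeness was measured as the root-mean-square difference of centred log2 CPM over the 10 libraries that appear to share gene models. A gene close to ITGA6 was SEMA5B at 0.09, and those most like ITGB1 were DNAJC3 at 0.08 and ANTXR2 at 0.09. The nearest to ITGA1 were LAMA4, the alpha 4 chain of laminin, at 0.18 and ISL1 at 0.22. The measure grows with a gene's own spread, and the SD of log2 CPM over these libraries was 1.23 for ITGA1, 0.52 for ITGA6 and 0.34 for ITGB1, so distances are not ranked between subunits. For ITGA3 they were CELSR1 (0.09) and SLC38A10 (0.10), for ITGB4 EPHA1 (0.13) and LOC101907335 (0.16), and for ITGA5 SERINC5 and SUSD2 (0.13 each). For ITGAV the nearest were TMEM45A (0.12) and CD47 (0.13), for ITGB3 TGFBR2 (0.11) and DSC3 (0.16), for ITGB5 PLOD2 (0.14) and EMILIN1 (0.15), and for ITGA2 AHNAK2 and XYLT1 (0.14 each). Among the subunits themselves, ITGAV and ITGB1 were 0.26 apart and ITGA1 and ITGA6 were 1.68 apart. These values are descriptions, and the libraries they span share groups.

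Beyond the 10 subunits, 12 other integrin genes passed the filter. In 1/7MC against MC, 6 of these 12 rose and 1 fell, where 23.7% of all genes tested rose and 21.3% fell, with a median log2 fold change of 0.70, against 0.00 over all genes. With MC replicate 1 alone 4 rose and 2 fell of 13, where 14% of all genes rose and 9.96% fell. ITGA4, a receptor chain for fibronectin and VCAM1, had 4.79, 4.72 and 4.13 CPM in 1/7MC, against 0.252, 0.192 and 0.297 CPM in MC (4.19 ± 0.40, adjusted p = 4.2e-06). ITGA11, a collagen-binding chain like ITGA1, had 12.2, 17.6 and 12.3 CPM in 1/7MC, against 1.09, 1.12 and 1.23 CPM in MC (3.62 ± 0.27, adjusted p = 6.85e-07). ITGA8, an RGD-binding chain, had 18.4, 25.5 and 15.0 CPM in 1/7MC, against 2.72, 1.69 and 1.89 CPM in MC (3.21 ± 0.25, adjusted p = 9.17e-07). These 3 genes were named for the largest called changes of the list. That their 1/7MC libraries lay above all MC libraries is therefore no further support.

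In 1/7MC+Pyr against 1/7MC, ITGA4 (-3.27 ± 0.36, adjusted p = 7.91e-05) and ITGA8 (-1.88 ± 0.23, adjusted p = 0.000175) were lower, as ITGA1 was, whereas ITGA11 did not pass (-0.45 ± 0.23, adjusted p = 0.208). ITGA7, an alpha chain that binds laminin with ITGB1 and is best known from muscle, was higher (0.96 ± 0.21, adjusted p = 0.00702), at a mean of 3.85 CPM in 1/7MC+Pyr and 1.97 CPM in 1/7MC. These were the calls among the 12, 1 higher and 2 lower, where 18.1% of all genes passed, and 5 of the 12 passed without 1/7MC+Pyr replicate 1. ITGA7 had its highest mean in MC, at 9.43 CPM. It was lower than in MC in 1/7MC+Pyr (-1.29 ± 0.20, adjusted p = 0.000416) and in 1/7MC+Pyr+FGF (-1.55 ± 0.20, adjusted p = 0.000113). With FGF, where 2.76% of all genes passed, only ITGA11 of the 12 did, lower at a mean of 4.57 CPM in 1/7MC+Pyr+FGF and 10.3 CPM in 1/7MC+Pyr (-1.17 ± 0.24, adjusted p = 0.0221), and it was lost without 1/7MC+Pyr+FGF replicate 1 or 2 or 1/7MC+Pyr replicate 1 (adjusted p up to 0.114). Among the chains known from leukocytes, ITGAD, ITGAL and ITGB2 were under the filter, whereas ITGAE, ITGB7 and ITGAM passed it. Group means ran from 17.6 to 33.4 CPM for ITGAE, from 1.94 to 3.74 CPM for ITGB7 and from 0.539 to 0.988 CPM for ITGAM.

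The chains of the ligands were read alongside their receptors. Of 8 laminin chains tested in 1/7MC against MC, LAMA4, LAMC3 and LAMB1 rose and 1 chain fell, with a median of 0.48 (2 rose and 1 fell of 9 with MC replicate 1 alone). Of all genes tested, 45% passed, or 23.9% with MC replicate 1 alone. LAMB1 was named after its values were seen. LAMA2 and LAMA5 had no entry among those kept, and LAMA3 was under the filter of the fit on all 12 libraries. LAMA4 had 142, 214 and 130 CPM in 1/7MC, against 6.72, 5.59 and 6.53 CPM in MC (4.69 ± 0.23, adjusted p = 3.01e-08), all 1/7MC libraries above all MC libraries. LAMA4 was lower in 1/7MC+Pyr than in 1/7MC (-1.43 ± 0.20, adjusted p = 0.000428), as was LAMC3 (-1.09, adjusted p = 0.038, lost in 5 of the 6 fits without 1 library of the pair, up to 0.159).

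Of 13 fibronectin and other RGD ligands tested, 8 rose and 2 fell in 1/7MC against MC, beside 23.7% higher and 21.3% lower of all genes tested, with a median of 1.23. With MC replicate 1 alone 7 rose and 2 fell, beside 14% higher and 9.96% lower of all genes. All 10 collagens of the list rose, with a median of 2.83, and 9 of them passed with MC replicate 1 alone. COL1A2, COL3A1 and COL1A1 stand in this list and also among the fibroblast markers. In 1/7MC+Pyr against 1/7MC, 4 RGD ligands rose and 3 fell (4 were called in all without 1/7MC replicate 3), and 3 collagens rose (1 to 6 across the alternative settings), where 18.1% of all genes passed. NPNT, nephronectin, a ligand of the ITGA8 receptor, was lower, at 0.651, 0.230 and 0.142 CPM in 1/7MC+Pyr, against 2.63, 2.73 and 2.14 CPM in 1/7MC (-2.87 ± 0.42, adjusted p = 0.000575). IBSP, a bone sialoprotein with an RGD sequence, was lower at a mean of 0.213 CPM in 1/7MC+Pyr and 0.912 CPM in 1/7MC (-2.11 ± 0.43, adjusted p = 0.00519). Both of these low-level genes passed in all 6 fits without 1 library of the pair. TNC, the matrix protein tenascin C, was higher, as it averaged 2002 CPM in 1/7MC+Pyr and 860 CPM in 1/7MC (1.22 ± 0.24, adjusted p = 0.00432). FN1, the fibronectin gene and ligand of the ITGA5 receptor, is given here although it was chosen after its values were seen. It had 4907, 3017 and 4103 CPM in 1/7MC+Pyr, against 1636, 2822 and 1404 CPM in 1/7MC (1.04 ± 0.25, adjusted p = 0.0142), and the 2 groups did not overlap. This FN1 call was lost without 1/7MC+Pyr replicate 1 or without 1/7MC replicate 1 or 3 (adjusted p up to 0.0663). FN1 was also higher in 1/7MC than in MC (1.66 ± 0.26, adjusted p = 0.000239), where ITGA5 did not pass (-0.11). In 1/7MC+Pyr+FGF against 1/7MC, where ITGA5 was higher (1.14), FN1 was called in 0 of 6 fits without 1 library (0.09 to 0.64). Both genes were higher in 1/7MC+Pyr+FGF than in MC (FN1 1.95, ITGA5 1.03). With FGF, 4 collagens fell and none rose by edgeR, where 2.76% of all genes passed, though 1 collagen was called when any of 5 single libraries was left out. The one that passed in every such fit was COL6A3, at 49.1, 84.7 and 76.3 CPM in 1/7MC+Pyr+FGF, against 301, 167.5 and 236 CPM in 1/7MC+Pyr (-1.75 ± 0.27, adjusted p = 0.00563). The libraries with FGF were all below those without it.

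**Figure D4:**
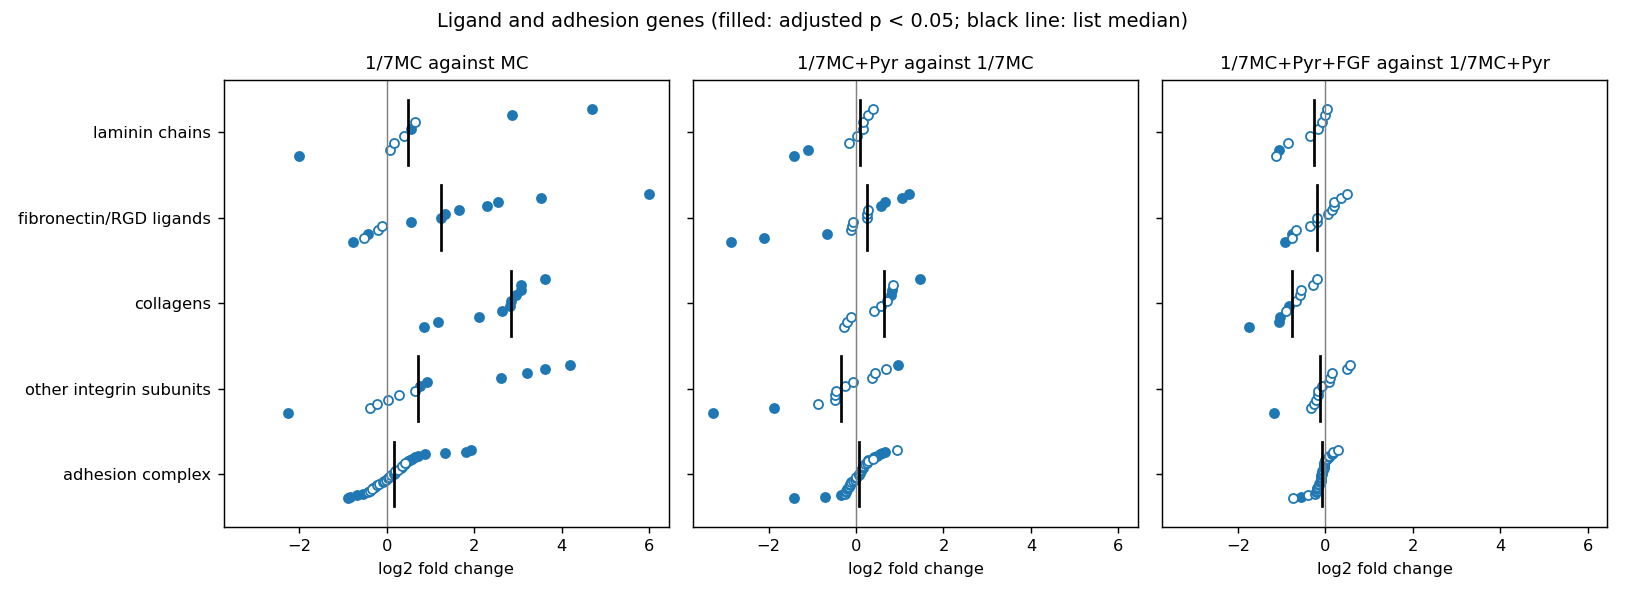
Log2 fold change of each tested laminin chain, fibronectin or RGD ligand, collagen, other integrin subunit and adhesion complex gene (1 dot per gene, black line at the list median) in 1/7MC against MC, 1/7MC+Pyr against 1/7MC and 1/7MC+Pyr+FGF against 1/7MC+Pyr. In 1/7MC against MC all 10 collagens lie above 0, with a median of 2.83.

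The dots of the adhesion complex genes lay closer to 0 than those of the ligands. Of 35 tested genes for the proteins that gather at the integrin tails, 12 rose and 6 fell in 1/7MC against MC (7 and 2 with MC replicate 1 alone), with a median of 0.16. This is close to the share of all genes tested, of which 45% passed, or 23.9% with MC replicate 1 alone. The leading ones were NEDD9, a docking protein of the p130Cas family, at a mean of 123 CPM in 1/7MC and 32.6 CPM in MC (1.92 ± 0.13), TGFB1I1 (1.81 ± 0.13) and PARVB (1.34 ± 0.12). NEDD9 had 44.2, 52.2 and 41.0 CPM in 1/7MC+Pyr, against 113, 134 and 122 CPM in 1/7MC (-1.42 ± 0.13), without overlap. In that comparison 6 adhesion complex genes rose and 3 fell, where 18.1% of all genes passed, and 3, 3 and 4 were called in all without 1/7MC+Pyr replicate 3, 1/7MC replicate 1 and 1/7MC replicate 3. With FGF, 1 of the 35 fell, where 2.76% of all genes passed. Of 6 hemidesmosome and tetraspanin genes tested, 2 rose and 2 fell in 1/7MC against MC (1 and 1 with MC replicate 1 alone), where again 45% of all genes passed (23.9% with MC replicate 1 alone). CD9, a tetraspanin that associates with laminin-binding integrins, averaged 624 CPM in 1/7MC and 1199 CPM in MC (-0.94 ± 0.11, adjusted p = 2.04e-05). CD9 was higher in 1/7MC+Pyr than in 1/7MC (0.86 ± 0.11, adjusted p = 0.000194), so in both comparisons it took the direction of ITGA6. The other tetraspanins called in 1/7MC against MC went both ways. CD81 fell (-0.78 ± 0.15, adjusted p = 0.00107), whereas CD63 (0.66 ± 0.12, adjusted p = 0.000562) and CD151 (0.53 ± 0.13, adjusted p = 0.00471) rose. All calls of this list in 1/7MC against MC were thus tetraspanins. Of the hemidesmosome genes PLEC, COL17A1 and DST, only PLEC was tested, and it did not pass (0.43 ± 0.25, adjusted p = 0.175). COL17A1 was under the filter of the fit on all 12 libraries, and DST had no entry among those kept.

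Of 11 tested genes for integrin inhibitors and trafficking, 2 rose and 2 fell in 1/7MC against MC (1 and 0 with MC replicate 1 alone), a share below that of all genes tested, of which 45% passed (23.9% with MC replicate 1 alone). DAB2, an adaptor that takes integrins into the cell, averaged 29.5 CPM in 1/7MC and 13.9 CPM in MC (log2 fold change 1.09). Of 9 other matrix receptors, 4 rose and 1 fell (2 and 0 with MC replicate 1 alone), beside the same shares of all genes. CD44, a receptor for hyaluronan, averaged 14.2 CPM in 1/7MC and 2.40 CPM in MC (2.57 ± 0.20, adjusted p = 8.45e-07). DDR2, a receptor tyrosine kinase that binds fibrillar collagen, averaged 50.7 CPM in 1/7MC and 11.8 CPM in MC (2.09 ± 0.35, adjusted p = 0.000401, or 1.30 with MC replicate 1 alone). Both thus rose in the comparison in which ITGA1 and ITGA2 rose.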

How the data were processed

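The authors deposited raw counts per gene and library. The submitters' processing notes name fastp 0.19.7, HISAT2 2.1.0, Subread 2.0, featureCounts and the build bosTau9; gene annotation, settings and strand handling are not given in the sources used here, so reads of overlapping, antisense or near-identical genes may be shared. A second deposited table is named for TPM, but its signal equals count divided by gene length times 1 constant (4.94) in every library, without correction for depth; it served only as an alternative. MC replicates 2 and 3 appear to follow other gene models.

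Of 19285 entries, 400 that share an identifier were left out. Symbols were matched by Entrez identifier to the RefSeq gene table, and no coordinates were used. edgeR 4.0.16 (R 4.3.3) was run on all 12 libraries with TMM scaling, its filter on low counts and 1 coefficient per group (13920 genes, Benjamini-Hochberg adjustment, adjusted p under 0.05). It was tested on simulated data. Levels per kilobase use 1 deposited length per gene. Alternatives were another scaling, filters, DESeq2 1.42.0, limma 3.58.1 on the rescaled signal at log2(value + 1), fits of 2 groups, the replicate block, MC replicate 1 alone and single libraries left out.

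The integrin subunits, their ligand classes, the context lists and the tests were chosen with earlier results of these data known. All 10 subunits were named, and from each context list at most the 3 called genes with the largest change in a comparison. For likeness, the 2 nearest genes were named. Some genes that these rules select are not reported here.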

Additional observations from a re-analysis of the deposited data

How the results depend on the processing

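The 60 subunit differences (10 subunits in 6 comparisons) were recomputed under 14 alternatives. Of the 840 values, 791 kept direction and side of the threshold, 27 lost their call, 11 gained one and 11 changed sign. All sign changes were in differences that had not passed. For 1/7MC+Pyr+FGF against 1/7MC+Pyr, ITGA3 became 0.07, 0.01 and 0.13 without 1/7MC+Pyr+FGF replicate 1, 1/7MC+Pyr+FGF replicate 3 and 1/7MC+Pyr replicate 1, ITGA5 became -0.08 without 1/7MC+Pyr+FGF replicate 2, and ITGA1 became -0.09 without 1/7MC+Pyr+FGF replicate 3 and -0.01 on the rescaled signal. ITGAV became 0.04 and 0.12 in 1/7MC+Pyr+FGF against 1/7MC without 1/7MC+Pyr+FGF replicate 1 and 1/7MC replicate 2. ITGA2 became -0.01 in 1/7MC+Pyr against 1/7MC without 1/7MC replicate 1 and -0.07 in 1/7MC+Pyr+FGF against MC without 1/7MC+Pyr+FGF replicate 2, and ITGA3 became 0.05 in 1/7MC+Pyr against MC without 1/7MC+Pyr replicate 2. Over the fits without 1 library, these differences ran from -0.35 to 0.13 (ITGA3), -0.08 to 0.33 (ITGA5), -0.09 to 0.24 (ITGA1), -0.16 to 0.12 (ITGAV), -0.01 to 0.36 and -0.07 to 0.24 (ITGA2, in the order given) and -0.3 to 0.05 (ITGA3 in 1/7MC+Pyr against MC). The causes were not tested. Calls were also lost for ITGA2 in 1/7MC+Pyr+FGF against 1/7MC+Pyr with size factors by median ratio (adjusted p = 0.0503) and on the rescaled signal (0.0603), and for ITGA3 in 1/7MC against MC on the rescaled signal (0.134). By CPM in place of the per-length level, ITGB1 made up 58.1% of the summed level in place of 65.57%.

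Subunits called in 1/7MC+Pyr+FGF against 1/7MC+Pyr were 1 to 3 with single libraries left out, in place of 3. Same-numbered replicates correlated at 0.229, 0.333 and 0.021 in 1/7MC+Pyr+FGF against 1/7MC and did not all pass 0.1 in any comparison, so the numbers were not taken as pairs. With the replicate block, ITGA3 in 1/7MC against MC (adjusted p = 0.0586) and ITGB3 in 1/7MC+Pyr+FGF against 1/7MC+Pyr (0.0565) lost their calls, and 8, 5, 2, 6, 8 and 8 subunits were called in place of 9, 5, 3, 6, 8 and 8, in the order 1/7MC against MC, 1/7MC+Pyr against 1/7MC, 1/7MC+Pyr+FGF against 1/7MC+Pyr, 1/7MC+Pyr+FGF against 1/7MC, 1/7MC+Pyr against MC and 1/7MC+Pyr+FGF against MC.

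Over all genes, 1/7MC+Pyr+FGF against 1/7MC+Pyr gave 384 calls, 902 with DESeq2, 181 with the block and 127 to 439 with single libraries left out. With MC replicate 1 alone, 3438, 1394 and 1723 genes were called against MC in 1/7MC, 1/7MC+Pyr and 1/7MC+Pyr+FGF, in place of 6268, 3949 and 4527. On the rescaled signal the share of higher calls was 63.7% in place of 52.7% (1/7MC against MC), 25.5% in place of 43.1% (1/7MC+Pyr+FGF against 1/7MC) and 65.8% in place of 53.6% (1/7MC+Pyr against MC, 67.6% with MC replicate 1 alone). Depth limits ITGA1 most, with 25 to 121 counts in the MC libraries.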
